A study of Mus musculus with 16 samples.

Results

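The difference between the female and the male response of the mouse left ventricle to transverse aortic constriction was measured on 16 microarrays, 4 in each of 4 groups. Transverse aortic constriction (TAC) narrows the aortic arch, so that the left ventricle pumps against a raised pressure and thickens. The groups were sham-operated males, males with TAC, sham-operated females and females with TAC, all mice of the inbred strain C57BL/6J, aged 12 to 14 weeks. RNA came from the left ventricle 14 days after the operation. The labels describe each sample as a mouse and do not say more on how the replicates were kept apart, so p-values measure the spread between these arrays. Ketamine with isoflurane is named as the anaesthetic for TAC, none is named for sham, and all groups were given the opioid analgesic buprenorphine. The response of each sex was its TAC mean minus its sham mean on the log2 scale, and the difference was the female response minus the male response. A positive difference thus stood for a female response that was more upward, or less downward, than the male one. Of the 22690 probe sets on the array, 19667 matched 1 gene symbol on an autosome, and 12055 of these, for 8010 of 11957 genes, were bright enough to be tested. Each gene is given by its brightest tested probe set, and signals are linear array units scaled by the authors.

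Pressure overload sets off a programme in which the ventricle returns to fetal contractile and natriuretic peptide genes, lays down collagen from cardiac fibroblasts and turns down fatty acid oxidation. Male and female rodent hearts share this programme but can differ in its size, and sex hormones, baseline expression and the course of the overload have all been studied in that setting. Because the difference of the responses equals the gap between the sexes in TAC minus the gap between the sexes in sham, it can be large when the sexes differ before overload and become alike, when they are alike and diverge, or when both happen.

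No gene passed an adjusted p of 0.05 for the difference (limma, Benjamini-Hochberg over all tested probe sets), and the smallest adjusted p was 0.0803. With 1 probe set per gene in the fit, Timp4 (limma adjusted p = 0.0463) and Trim30a (adjusted p = 0.0482) passed. At an unadjusted p under 0.05, 513 of the 8010 genes (6.40%) differed, 264 with a positive difference (3.30%) and 249 with a negative one (3.11%). These unadjusted counts are used below as a description and make no call of their own. By contrast 1272 genes changed in males (8.13% up and 7.75% down) and 1047 in females (6.42% up and 6.65% down) at an adjusted p under 0.05. In both sexes 630 genes changed, and 2 of them, Timp4 and Rgcc, did so in opposite directions. Of the 642 genes called in males alone, 170 had an unadjusted p under 0.05 for the difference itself, as did 91 of the 417 called in females alone. Choosing genes called in a single sex itself favours a difference, so these counts are descriptions. Across the 8010 genes, which are not independent replicates, the responses of the sexes had a Pearson correlation of 0.637. Calls in each sex were fewer with the 3' to 5' Gapdh ratio as a covariate, 352 in place of 2149 probe sets in males and 441 in place of 1820 in females. Every TAC array had a higher Gapdh ratio (0.958 to 1.164) than every sham array (0.785 to 0.921). The covariate thus takes up part of the TAC contrast itself, and this RNA measure and TAC cannot be told apart.

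**Figure D1:**
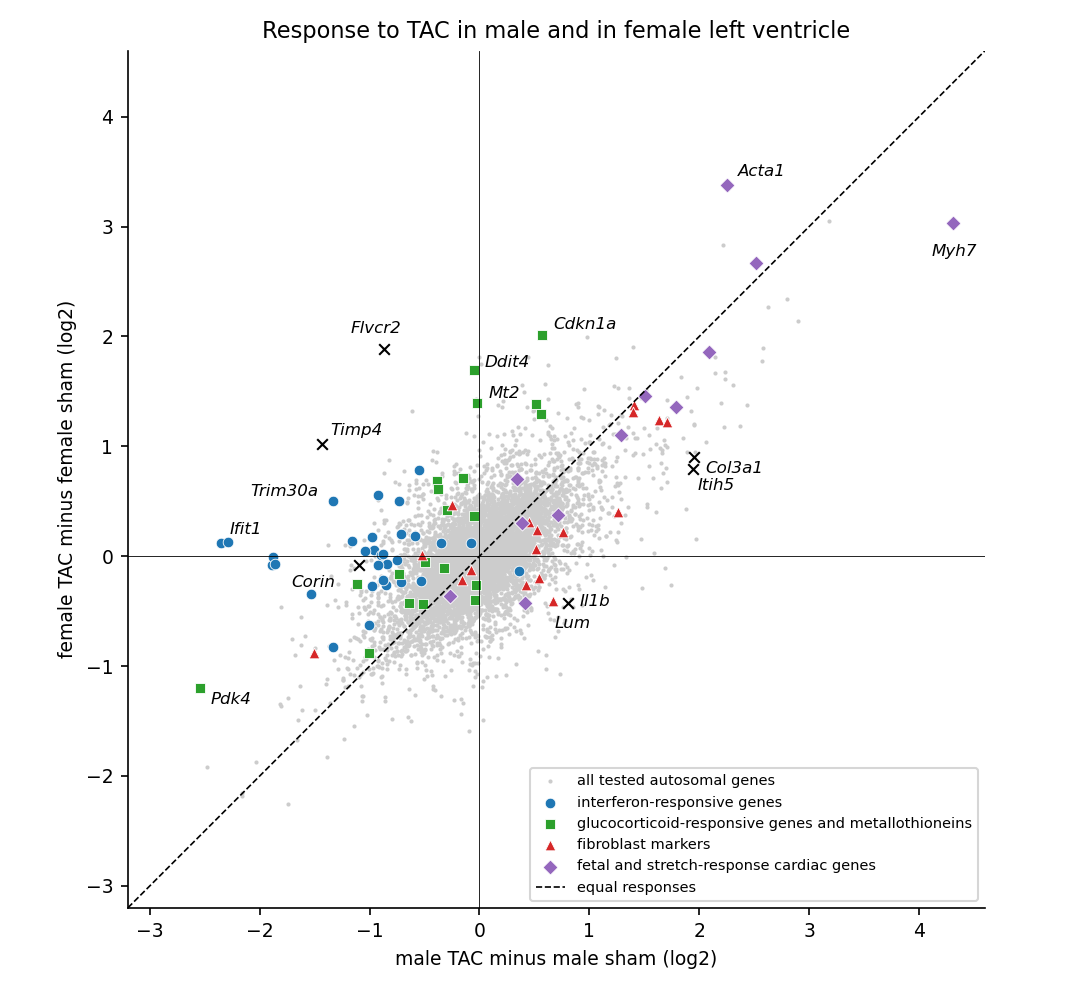
Response to TAC (log2, TAC minus sham) of each tested autosomal gene in males (horizontal axis) and females (vertical axis), 4 arrays per group; coloured symbols mark 4 gene lists, black crosses mark genes outside them, and the dashed line marks equal responses. Interferon-responsive genes lie left of the line near a female response of 0, whereas Col3a1, Itih5 and Lum lie to its right.

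The 513 genes were chosen for a large difference, which itself favours responses of opposite sign, so their make-up is a description. In 318 of them the 2 responses had opposite signs, 169 with a negative male and a positive female value and 149 the other way round, while 2270 of all 8010 genes (28.3%) had responses of opposite sign. In 136 both responses had the same sign and the male one was larger, and in 59 the female one was larger. For 333 of the 513 the sexes lay further apart in sham than in TAC, and for 180 further apart in TAC (4394 of all 8010 genes were further apart in sham). A count independent of the difference was taken from the response averaged over the sexes. Of 1076 genes that rose on average (13.4% of all), 59.4% had the larger response in males, and of 1048 that fell (13.1%), 55.2% did. Their median differences were small, -0.07 for risen and 0.03 for fallen genes, against -0.01 for all genes. Genes are not independent replicates, so these shares are descriptions. Centring each array on its median brought the share among risen genes to 50.0%, and leaving out female TAC replicate 1 brought the share among fallen genes to 47.7%. The independence holds for equal groups without a covariate, so it does not hold for the latter share.

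**Figure D2:**
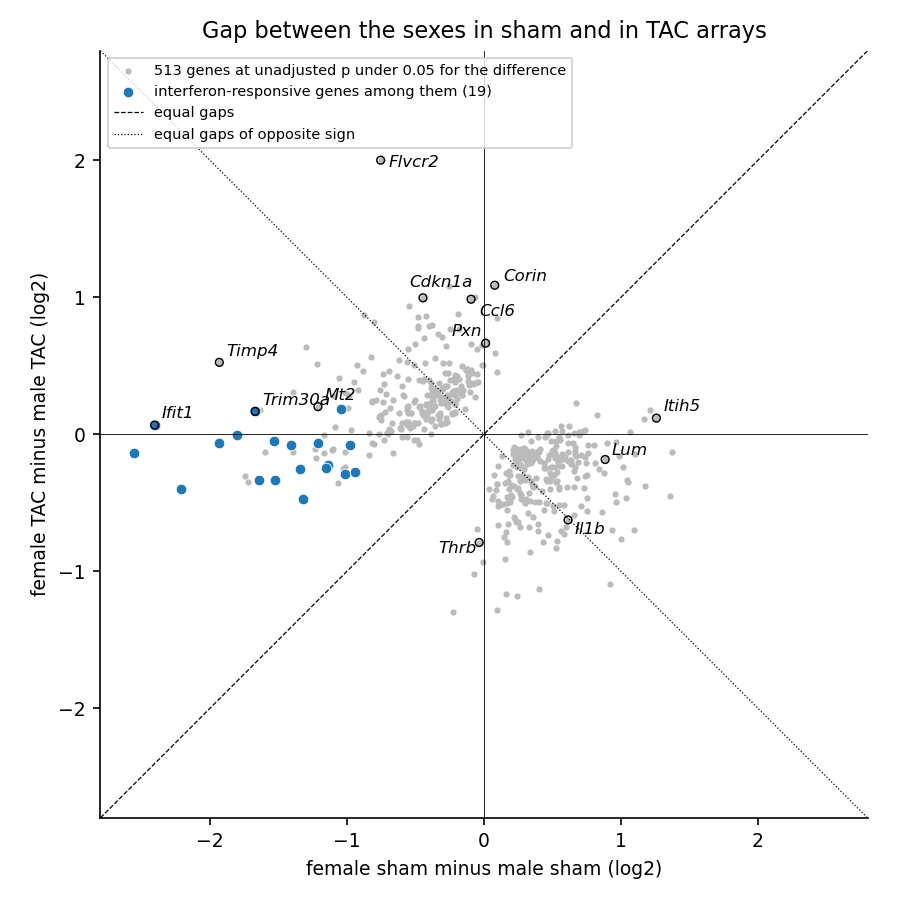
Gap between the sexes (log2, female minus male) in sham arrays (horizontal axis) and TAC arrays (vertical axis) for the 513 genes with an unadjusted p under 0.05 for the difference; blue points are the 19 interferon-responsive genes among them. The blue points spread along the horizontal axis, far from 0 in sham and close to it in TAC, and Corin, Pxn and Flvcr2 lie away from 0 along the vertical axis.

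The arrays differed in RNA measures that moved with the groups. The log2 signal of the 5' 18S ribosomal RNA control was 12.65 to 13.82 in male sham, 9.06 to 9.54 in 3 male TAC arrays and 13.16 in male TAC replicate 5, 10.74 to 12.79 in female sham and 9.31 to 10.73 in female TAC. The 3' to 5' Gapdh ratio averaged 0.88 ± 0.04 in male sham, 1.08 ± 0.07 in male TAC, 0.86 ± 0.06 in female sham and 0.99 ± 0.03 in female TAC (SD, n = 4). All 8 cardiomyocyte markers were bright, with a summed signal of 206025 to 323361 per array, while 8 of 10 lymphocyte, 9 of 12 skeletal muscle and 3 of 3 erythroid markers lay under the signal limit. Summed signals of 18 fibroblast markers were 26713 to 29503 in male sham, 33053 to 44525 in male TAC, 29570 to 33304 in female sham and 31484 to 38920 in female TAC. The 27 macrophage and leukocyte markers summed to 14345 to 20074, 19568 to 22226, 14551 to 15734 and 17353 to 24468 in the same order. In whole tissue, a change in the number of cells of a type and a change in RNA per cell cannot be told apart.

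Interferon-responsive genes had the largest median difference of the gene lists examined. These genes are switched on by type I interferon, many of them through a promoter sequence called the interferon-stimulated response element, and their products restrict viruses. Of 31 tested members, 30 had a positive difference and 19 had an unadjusted p under 0.05, all 19 positive, against 3.30% of all genes. The median difference was 0.91 against -0.01 for all genes, made up of a male median response of -0.93 and a female one of 0.01. In males 15 members fell at an adjusted p under 0.05, against 7.75% of all genes, and in females 0 changed (limma). In sham arrays the median member was lower in females by 1.14 (log2 -1.14), with 12 of 31 called lower there against 0.237% of all genes, and in TAC arrays the median gap was -0.26. Part of the list was known from earlier results of these arrays, so its count is not independent evidence.

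Male sham arrays stood high for these genes. The mean log2 signal of the list, relative to the mean of all arrays, was 1.06, 0.25, 1.15 and 1.04 in male sham replicates 1 to 4 and -0.42 to -0.29 in female sham. In male TAC it was -0.31, -0.54, -0.37 and 0.66, the last for replicate 5, which was also the male TAC array with an 18S signal like that of the shams. In female TAC it was -0.23, -0.20, -0.91 and -0.12, the lowest being replicate 3. Without male TAC replicate 5 the count rose to 24 of 31 and the median difference to 1.14, and without female TAC replicate 2 the count was 15. With the 18S signal as a covariate 15 members kept an unadjusted p under 0.05 for a positive difference, with a median of 0.75.

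**Figure D3:**
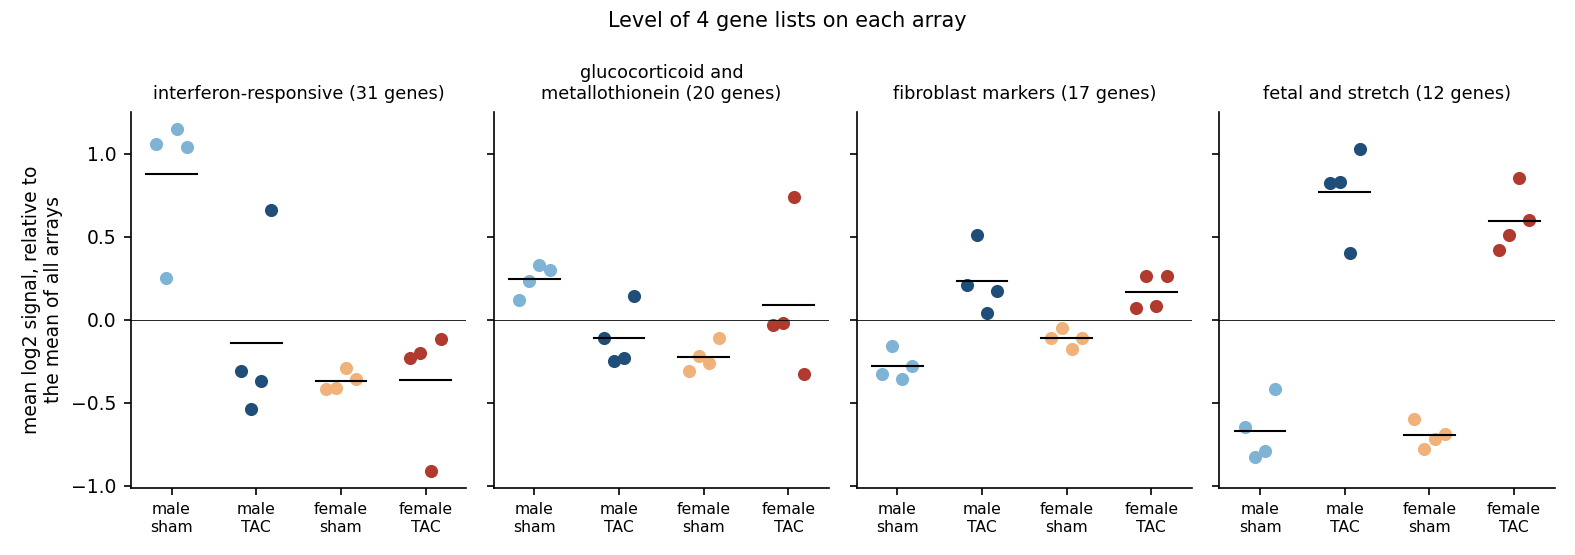
Mean log2 signal of 4 gene lists on each of the 16 arrays, relative to the mean of all arrays; points are arrays and bars group means (n = 4). For the interferon list 3 male sham arrays lie above 1, and male TAC replicate 5 lies at 0.66 above its group; for the glucocorticoid and metallothionein list female TAC replicate 3 lies at 0.74.

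Trim30a, a tripartite-motif protein that dampens innate immune signalling, had signals of 1632, 889, 2094 and 1411 in male sham and 723, 360, 543 and 697 in male TAC. Its female signals were 435, 399, 453 and 482 in sham and 551, 571, 653 and 773 in TAC. Every male sham array was above every other array, and every female TAC array was above every female sham array. The male response was -1.34 (limma adjusted p = 0.000327), the female response 0.50 (adjusted p = 0.149) and the difference 1.84 ± 0.32 (SE, limma adjusted p = 0.0843). A second probe set of the gene had the same sign.

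Ifit1 encodes a protein that binds foreign RNA and blocks its translation. Male sham signals were 2611, 1201, 3223 and 2191, and male TAC signals were 453, 194, 320 and 1005. Female sham signals were 389, 409, 348 and 448, and female TAC signals 580, 493, 294 and 417. The male groups did not overlap and the female groups did, and replicate 5 was the highest male TAC array. The male response was -2.35 (limma adjusted p = 0.000102), the female 0.12, and the difference 2.47 ± 0.50 (SE, limma adjusted p = 0.216), which reached an adjusted p of 0.00487 without male TAC replicate 5.

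Other interferon-induced genes also had high signals in male sham. Ifit2, another RNA-binding member of the family, had a male response of -2.29 and a female one of 0.13, with a difference of 2.42 ± 0.61 (SE). Usp18, which removes the ubiquitin-like ISG15 from proteins and restrains interferon signalling, had male sham signals of 1381, 551, 1567 and 1306 and signals of 133 to 398 on all other arrays. Its difference was 1.87 ± 0.46 (SE). Helz2, a helicase and nuclear receptor coactivator that is not on the list, rose in females by 0.78 (limma adjusted p = 0.0363) while the male response was -0.68, giving a difference of 1.46 ± 0.35 (SE). Its male groups overlapped, and male sham again lay above female sham without overlap.

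The regulators of the group and some members outside the rule for named genes were looked at after their values had been seen. Irf7, the factor that amplifies interferon production, fell by 0.90 in males (limma adjusted p = 0.00885) with a female response of 0.01 and a difference of 0.91. Irf9, a further interferon regulatory factor, fell by 0.88 in males (limma adjusted p = 0.0146) with a female response of 0.02 and a difference of 0.90. Ifit3, an Ifit partner, had a difference of 1.81 ± 0.48, and Bst2, which tethers budding virus to the cell surface, one of 1.34 ± 0.38 (SE). Gbp2, a guanylate-binding protein induced mainly by interferon gamma, had a difference of only 0.38 ± 0.69 (SE). Its male TAC signals were 405, 315, 423 and 3244, so that replicate 5 alone exceeded the male sham arrays at 655 to 1708, and with the 18S covariate its difference was -0.44. Lgals9, a galectin that is also induced by interferon, fell in males by 1.35 (limma adjusted p = 0.000232) with a female response of -0.18 and a difference of 1.17 ± 0.31 (SE).

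The promoters of 5 of these genes are shown because their genes share the response element while their differences do not have the same size. Each is the window of 300 bases, from 250 before to 50 after a transcription start, in the RefSeq promoter table of GRCm38.p6, written in the direction of transcription with the searched core GAAANNGAAA, or its reverse complement, in capitals. Ifit1 is at chr19:34640639-34640938 (plus strand), Ifit3 at chr19:34583279-34583578 (plus), Trim30a at chr7:104465144-104465443 (minus, the first of 2 windows), Bst2 at chr8:71537423-71537722 (minus) and Gbp2 at chr3:142620413-142620712 (plus).
Ifit1: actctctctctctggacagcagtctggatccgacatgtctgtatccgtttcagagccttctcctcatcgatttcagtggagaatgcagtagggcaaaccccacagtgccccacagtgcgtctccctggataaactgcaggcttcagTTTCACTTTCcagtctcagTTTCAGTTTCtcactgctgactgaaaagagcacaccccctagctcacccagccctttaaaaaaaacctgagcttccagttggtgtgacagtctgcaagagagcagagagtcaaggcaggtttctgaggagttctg
Ifit3: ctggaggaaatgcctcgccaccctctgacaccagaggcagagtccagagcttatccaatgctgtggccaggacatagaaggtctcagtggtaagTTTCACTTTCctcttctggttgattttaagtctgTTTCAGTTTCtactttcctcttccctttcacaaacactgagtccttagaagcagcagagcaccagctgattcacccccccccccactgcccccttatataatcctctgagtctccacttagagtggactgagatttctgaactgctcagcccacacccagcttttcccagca
Trim30a: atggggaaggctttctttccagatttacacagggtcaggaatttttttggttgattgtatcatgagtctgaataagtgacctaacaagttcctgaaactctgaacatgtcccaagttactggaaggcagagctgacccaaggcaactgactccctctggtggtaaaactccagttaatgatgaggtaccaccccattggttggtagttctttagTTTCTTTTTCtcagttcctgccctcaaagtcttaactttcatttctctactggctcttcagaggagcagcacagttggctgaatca
Bst2: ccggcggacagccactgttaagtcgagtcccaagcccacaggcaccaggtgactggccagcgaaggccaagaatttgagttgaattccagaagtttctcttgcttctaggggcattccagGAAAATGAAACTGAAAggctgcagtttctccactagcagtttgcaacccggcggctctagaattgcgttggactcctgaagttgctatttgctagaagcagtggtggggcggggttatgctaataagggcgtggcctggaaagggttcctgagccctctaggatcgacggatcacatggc
Gbp2: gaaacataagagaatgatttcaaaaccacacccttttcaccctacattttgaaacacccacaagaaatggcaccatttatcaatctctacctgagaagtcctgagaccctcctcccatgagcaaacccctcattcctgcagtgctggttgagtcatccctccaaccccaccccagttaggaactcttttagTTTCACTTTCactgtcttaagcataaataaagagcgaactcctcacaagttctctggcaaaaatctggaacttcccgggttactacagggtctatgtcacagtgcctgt
Ifit1 and Ifit3 each held 2 separate matches, the matches of Bst2 overlapped, and Trim30a and Gbp2 held 1 each in the windows shown. The core, on either strand, was present in 12 of 25 tested list members with a window (48%) and in 257 of 6490 tested genes (3.96%). It was found in 6 of 16 members with an unadjusted p under 0.05 (37.5%) and in 6 of the 9 others (66.7%). These counts are small, and whether the core marks the members that differed was not tested. A match describes letters and shows no binding, and a window without a match does not show that a gene lacks the element.

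Extracellular matrix and fibroblast lists had negative median differences, though few of their members passed the unadjusted threshold. Collagens and their processing enzymes had a median response of 1.10 in males and 0.86 in females. At an adjusted p under 0.05, 17 of 23 rose in each sex, against 8.13% of all genes in males and 6.42% in females. The median difference was -0.26, against -0.01 for all genes, with 18 of 23 negative. At an unadjusted p under 0.05 there were 1 negative and 1 positive member, against 3.11% and 3.30% of all genes. As single arrays were left out, the collagen median ran from -0.36 to -0.14 and the negative count from 1 to 5, with 5 without female TAC replicate 5 and 4 without male TAC replicate 4. For 31 matricellular, elastic fibre and proteoglycan genes the medians were 1.11 and 0.77, and the median difference was -0.26 with 27 negative. Of these genes, 2 with a negative and 0 with a positive difference passed the unadjusted threshold, against 3.11% and 3.30% of all genes. There the median ran from -0.38 to -0.14, and the count reached 6 without female TAC replicate 3 or male TAC replicate 4, 5 without male sham replicate 4 and 4 without female TAC replicate 5. Among 17 fibroblast markers, 9 rose and 2 fell in males, against 8.13% and 7.75% of all genes. In females 4 rose and 1 fell, against 6.42% and 6.65%. Their median difference was -0.29, and 6 negative and 2 positive members passed the unadjusted threshold, against 3.11% and 3.30% of all genes. Leaving out single arrays gave a median of -0.37 to -0.20 for the fibroblast markers and 4 to 7 negative members. The summed fibroblast signals given above include these same 17 markers, so they are not separate evidence. Whether the number of fibroblasts played a part was not tested.

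Lum, the small leucine-rich proteoglycan lumican that spaces collagen fibrils, had male signals of 1260, 1317, 1138 and 1121 in sham and 2109, 2355, 1463 and 1878 in TAC. Female signals were 2368, 2348, 1911 and 2373 in sham and 1532, 2039, 1278 and 2043 in TAC. Female sham arrays were all above male sham arrays, and male TAC arrays were all above male sham arrays, while both TAC groups overlapped. Lum rose by 0.66 in males (limma adjusted p = 0.00558), the female response was -0.40 (adjusted p = 0.0932), and the difference was -1.07 ± 0.22 (SE, limma adjusted p = 0.216).

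Col3a1, the fibrillar collagen type III chain, rose in both sexes but from different baselines. Male sham signals were 3718, 2922, 4177 and 4360 and male TAC signals 14500, 16081, 11144 and 17459. Female sham signals were 7906, 6130, 4882 and 6720 and female TAC signals 11092, 10220, 11327 and 15369. Female shams all lay above male shams and the TAC groups overlapped. The increase was 1.96 in males (limma adjusted p = 2.51e-07) and 0.91 in females (adjusted p = 0.000875), a difference of -1.05 ± 0.23 (SE, limma adjusted p = 0.285), and its other probe set had the same sign.

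Further matrix and fibroblast genes had a larger male than female response. Itih5, which binds and stabilises hyaluronan, was at 207 to 297 in male sham, 747 to 1193 in male TAC, 521 to 802 in female sham and 948 to 1365 in female TAC, with a difference of -1.14 ± 0.25 (SE). Mxra8, a matrix remodelling-associated membrane protein, rose by 1.03 in males (limma adjusted p = 5.33e-05) with a female response of 0.28. Mgp, a matrix protein that inhibits calcification, rose by 1.66 in males (limma adjusted p = 4.79e-06) and 0.85 in females (adjusted p = 0.00363), a difference of -0.81 ± 0.26 (SE). Pdgfra, the platelet-derived growth factor receptor that marks fibroblasts, passed in neither sex, with responses of 0.42 and -0.26, and had a difference of -0.68 ± 0.24 (SE). Frzb, a secreted Wnt antagonist, rose by 2.43 in males (limma adjusted p = 1.11e-05) and 1.38 in females (adjusted p = 0.00311), a difference of -1.06 ± 0.42 (SE). All male sham signals of Frzb lay under the signal limit of 130.8. Its difference is thus a description and no support for a larger male response.

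Some genes of the same lists had positive differences. P4ha2, a subunit of the prolyl hydroxylase that collagen needs to fold, was at 458 to 557 in male sham, 455 to 679 in male TAC, 359 to 516 in female sham and 691 to 863 in female TAC. It rose in females by 0.84 (limma adjusted p = 0.000911) with a male response of 0.22, a difference of 0.63 ± 0.22 (SE). P4ha1, the related subunit, rose in both sexes, by 0.64 in males and 1.09 in females, with an unadjusted p of 0.0571 for the difference (limma). Dpep1, a membrane dipeptidase listed as a fibroblast marker, had a difference of 0.71 ± 0.23 (SE), with a second probe set of the same sign.

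The ligands of the TGF-beta family, which drive fibroblasts towards matrix synthesis, had larger male responses in 2 cases. Tgfb2 had male sham signals of 84.1, 130, 201 and 158, male TAC signals of 518, 588, 390 and 458, female sham signals of 250, 248, 135 and 194 and female TAC signals of 271, 379, 419 and 276. TAC arrays exceeded sham arrays in both sexes without overlap, and the 2 sham groups overlapped. The male rise was 1.70 (limma adjusted p = 9.66e-05), the female response 0.67 (adjusted p = 0.0794) and the difference -1.03 ± 0.36 (SE). Tgfb3 rose by 1.88 in males (limma adjusted p = 0.00243) with a female response of 0.43, and its male sham signals were widely spread at 45.1 to 233. Id3, a transcriptional target of the pathway that blocks helix-loop-helix factors, rose by 0.83 in males (limma adjusted p = 0.000503) with a female response of 0.19, and all female TAC arrays lay below all male TAC arrays. Over 26 TGF-beta and BMP genes the median difference was -0.05. Of these, 4 had a negative and 1 a positive difference at an unadjusted p under 0.05, against 3.11% and 3.30% of all genes.

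Timp4, the tissue inhibitor of metalloproteinases most typical of heart, had the smallest p of all autosomal genes. Male sham signals were 1309, 1278, 1184 and 1168, and male TAC signals 680, 347, 324 and 512. Female sham signals were 172, 328, 320 and 512, and female TAC signals 920, 773, 656 and 376. Male sham arrays were above all others, the female groups overlapped through TAC replicate 5, and the TAC groups overlapped each other. Timp4 fell by 1.44 in males (limma adjusted p = 0.00141) and rose by 1.02 in females (adjusted p = 0.0188), a difference of 2.46 ± 0.40 (SE, limma adjusted p = 0.0803), with the other probe set of the same sign. The sexes were 1.93 apart in sham (log2 -1.93, limma adjusted p = 0.00234) and 0.52 apart the other way in TAC (adjusted p = 0.807). Timp3, a matrix-bound relative, passed in neither sex and had a difference of 0.62 with a 95% interval of -0.30 to 1.54. Adam15, a membrane disintegrin and metalloproteinase, rose in females by 0.76 (limma adjusted p = 0.000733) with a male response of 0.32, and 1 of the gene's further probe sets gave a negative difference.

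**Figure D4:**
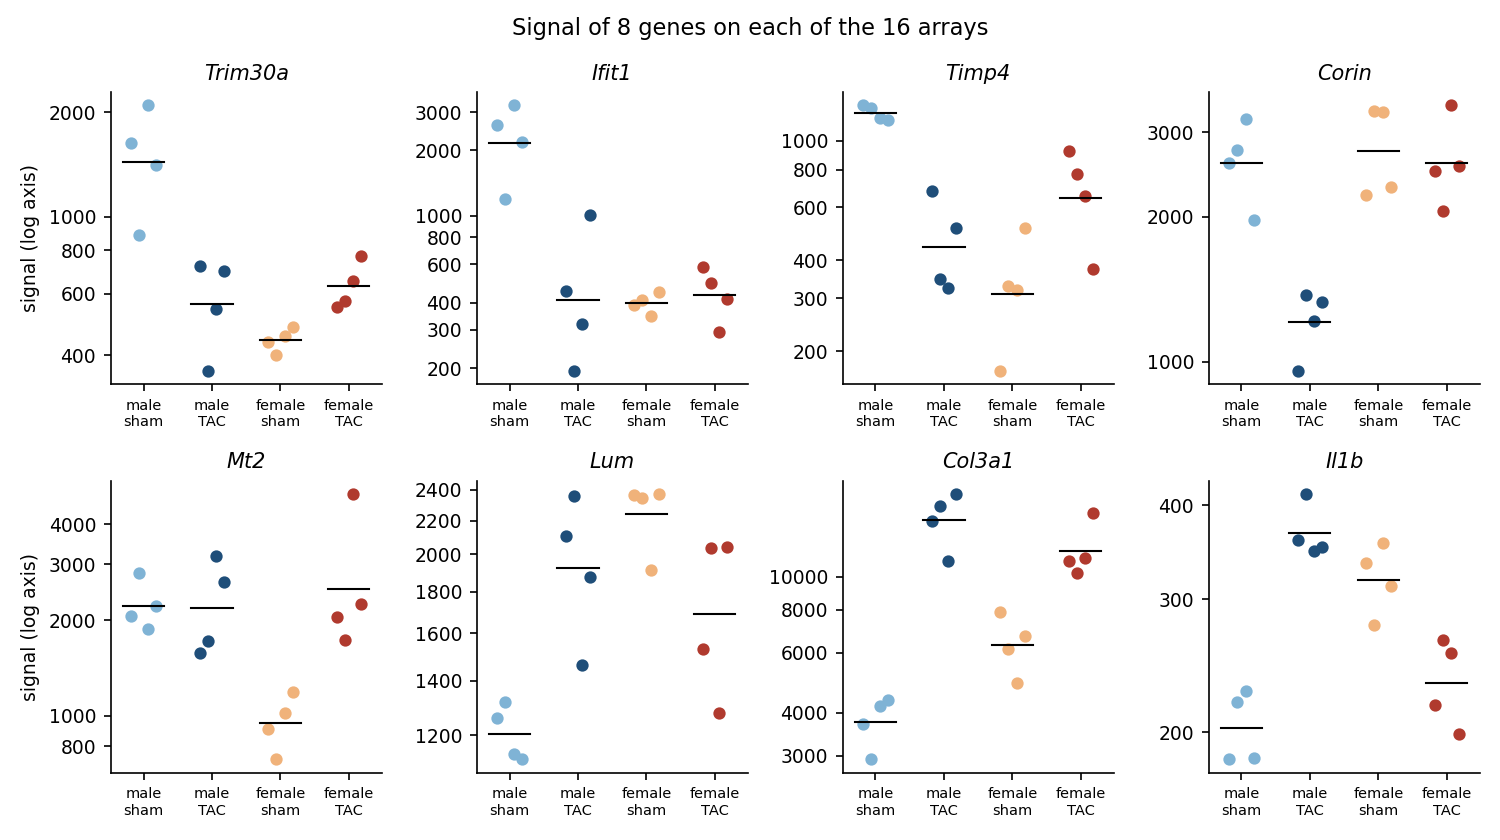
Signal of 8 genes on each of the 16 arrays (vertical log axis, array units); points are arrays, and bars mark geometric means of the 4 arrays of a group. Male sham stands above the other groups for Trim30a, Ifit1 and Timp4 and below them for Lum and Col3a1, female sham stands below for Mt2, and male TAC stands below for Corin.

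Glucocorticoid-responsive genes and metallothioneins, which respond to stress hormones and to metals, had a median difference of 0.72. The male median response was -0.31 and the female one 0.15, 18 of 20 members had a positive difference, and 6 passed the unadjusted threshold, all positive, against 3.30% of all genes. In females 6 members rose and 3 fell at an adjusted p under 0.05, against 6.42% and 6.65% of all genes. In males 0 rose and 3 fell, against 8.13% and 7.75%. Female TAC replicate 3 carried part of this: its list level was 0.74 against -0.33 to -0.02 on the other female TAC arrays, and without it the median difference was 0.47. Without male TAC replicate 5 the count was 10. With the 18S signal as a covariate the median was 0.33, with 7 members at an unadjusted p under 0.05.

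Mt2, a metallothionein that binds zinc and copper, had signals of 2064, 2802, 1872 and 2216 in male sham and 1573, 1718, 3189 and 2632 in male TAC. In females it had 908, 728, 1022 and 1187 in sham and 2044, 1734, 4992 and 2251 in TAC. Female sham was below every other array, and the male groups overlapped. It rose in females by 1.39 (limma adjusted p = 0.00130) with a male response of -0.02, a difference of 1.41 ± 0.38 (SE), or 1.09 without female TAC replicate 3.

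Ddit4, a stress-induced inhibitor of mTORC1, rose in females by 1.69 (limma adjusted p = 0.00298) with a male response of -0.05 and a difference of 1.75 ± 0.51 (SE). Its female TAC signals were 1698, 2105, 4682 and 1065, and the difference was 1.35 without replicate 3. Glul, the glutamine synthetase, rose in females by 0.71 (limma adjusted p = 0.00751) with a male response of -0.15. Cdkn1a, the cell cycle inhibitor p21, rose in females by 2.01 (limma adjusted p = 0.000679) with a male response of 0.57, which did not pass (adjusted p = 0.302). Its female TAC signals were 763, 1716, 2742 and 1089, all above female sham at 256 to 403, while the male groups overlapped. Atf3, a transcription factor of the stress response, rose in females by 1.74 (limma adjusted p = 0.00478) with a male response of 0.63, and its difference of 1.11 had an unadjusted p of 0.0602 (limma).

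The fetal and stretch-response genes rose strongly in both sexes, and their differences went in both directions. Over 12 tested members the median response was 1.40 in males and 1.23 in females, and the median difference -0.14. At an unadjusted p under 0.05, 2 members had a negative and 1 a positive difference, against 3.11% and 3.30% of all genes. Myh7, the slow beta-myosin heavy chain, had male signals of 890, 842, 800 and 790 in sham and 15026, 19439, 9036 and 30050 in TAC. Female signals were 1244, 1040, 1717 and 1149 in sham and 7893, 5172, 22053 and 13365 in TAC. All female shams exceeded all male shams, and the TAC groups overlapped. Myh7 rose by 4.31 in males (limma adjusted p = 1.28e-07) and by 3.03 in females (adjusted p = 8.08e-06), a difference of -1.28 ± 0.48 (SE, limma unadjusted p = 0.0151).

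Acta1, skeletal alpha-actin, which the stressed ventricle re-expresses, had the opposite sign. It rose by 2.25 in males (limma adjusted p = 3.07e-05) and by 3.38 in females (adjusted p = 5.15e-07), a difference of 1.13 ± 0.42 (SE). Male sham signals were 6142, 5330, 2352 and 9621, female sham signals 2949, 2025, 2326 and 1705, and the TAC groups lay at 16776 to 34150 and 18818 to 30313. Acta2, smooth muscle alpha-actin, passed in neither sex, with responses of 0.41 and -0.42 and a difference of -0.84 ± 0.24 (SE), and female shams all lay above male shams.

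No difference was detected for the natriuretic peptides. Nppa, atrial natriuretic peptide, rose by 2.52 in males and 2.67 in females (limma adjusted p = 2.88e-06 and 2.36e-06), with a difference of 0.15 and a 95% interval of -0.64 to 0.95. Nppb, the B-type peptide, rose by 2.08 and 1.86, with a difference of -0.23 (95% interval -0.87 to 0.42). Myh6, the adult alpha-myosin heavy chain, fell by 0.33 and 0.37 (limma adjusted p = 0.00681 and 0.00327), with a 95% interval of -0.28 to 0.19 for the difference.

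Corin, the serine protease that cuts the atrial natriuretic peptide precursor into its active form, was lowest in male TAC. Male signals were 2593, 2754, 3201 and 1972 in sham and 956, 1376, 1216 and 1328 in TAC. Female signals were 2224, 3320, 3309 and 2303 in sham and 2485, 2060, 3412 and 2557 in TAC. Male TAC arrays were below every other array, and the remaining groups overlapped. Corin fell by 1.09 in males (limma adjusted p = 0.000239) with a female response of -0.08 (adjusted p = 0.819), a difference of 1.01 ± 0.25 (SE, limma adjusted p = 0.411). It was 1.09 higher in female than in male TAC (limma adjusted p = 0.0112), 1 of 2 autosomal genes called between the sexes in TAC (0.0250% of genes), the other being Pxn. The number of such calls was 0 with autosomal probe sets only in the fit or without male TAC replicate 1, 1 under several other settings, and 5 without male TAC replicate 5.

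Cytoskeletal genes rose in both sexes, 21 of 38 in males and 17 in females, against 8.13% and 6.42% of all genes (adjusted p under 0.05). Their median difference was -0.05. At an unadjusted p under 0.05, 5 members had negative differences and 1 a positive one, against 3.11% and 3.30% of all genes. The direction of these counts was not stable: with the Gapdh covariate they were 4 negative and 7 positive, and without female TAC replicate 1 they were 4 and 4. Actg1, cytoplasmic gamma-actin, had male signals of 3617, 2987, 3122 and 4337 in sham and 6389, 7097, 7174 and 7962 in TAC, and female signals of 5290, 5374, 5534 and 7003 in sham and 6398, 6809, 7285 and 8646 in TAC. Male sham was below all other arrays. Actg1 rose by 1.03 in males (limma adjusted p = 1.41e-05) with a female response of 0.33 (adjusted p = 0.0923), a difference of -0.70 ± 0.18 (SE). Tuba1a, an alpha-tubulin, rose by 1.69 and 1.01 (limma adjusted p = 5.20e-07 and 0.000175) with a difference of -0.68 ± 0.22 (SE). Csrp2, a LIM protein of actin bundles, rose by 1.44 and 0.71 (limma adjusted p = 8.69e-06 and 0.00713) with a difference of -0.73 ± 0.24 (SE). Lima1, a LIM protein that stabilises actin filaments, fell in females by 0.56 (limma adjusted p = 0.0227) with a male response of 0.23.

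Among 22 integrin, focal adhesion and intercalated disc genes, 4 had negative and 1 a positive difference at an unadjusted p under 0.05, against 3.11% and 3.30% of all genes. The negative count was 2 with the 18S covariate, with the replicate number as a block, and without female TAC replicate 2, male TAC replicate 4 or male sham replicate 3 or 4. Pxn, the focal adhesion scaffold paxillin, had signals of 1018, 893, 857 and 1079 in male sham, 998, 826, 974 and 1118 in male TAC, 1006, 972, 1029 and 863 in female sham and 1516, 1476, 1506 and 1724 in female TAC. Female TAC stood above all other arrays, which overlapped. It rose by 0.68 in females (limma adjusted p = 0.000813) with a male response of 0.02, a difference of 0.65 ± 0.17 (SE), and the other probe set had the same sign. Between the sexes in TAC it was higher by 0.66 in females (limma adjusted p = 0.0379). Itgav, the integrin alpha V chain that activates latent TGF-beta, rose by 1.05 and 0.59 (limma adjusted p = 1.15e-05 and 0.00341) with a difference of -0.46 ± 0.18 (SE). Gja1, the gap junction protein of ventricular muscle, rose by 0.52 in males (limma adjusted p = 0.000887) with a female response of 0.09 and a difference of -0.43 ± 0.14 (SE), and all 5 other probe sets had the same sign.

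**Figure D5:**
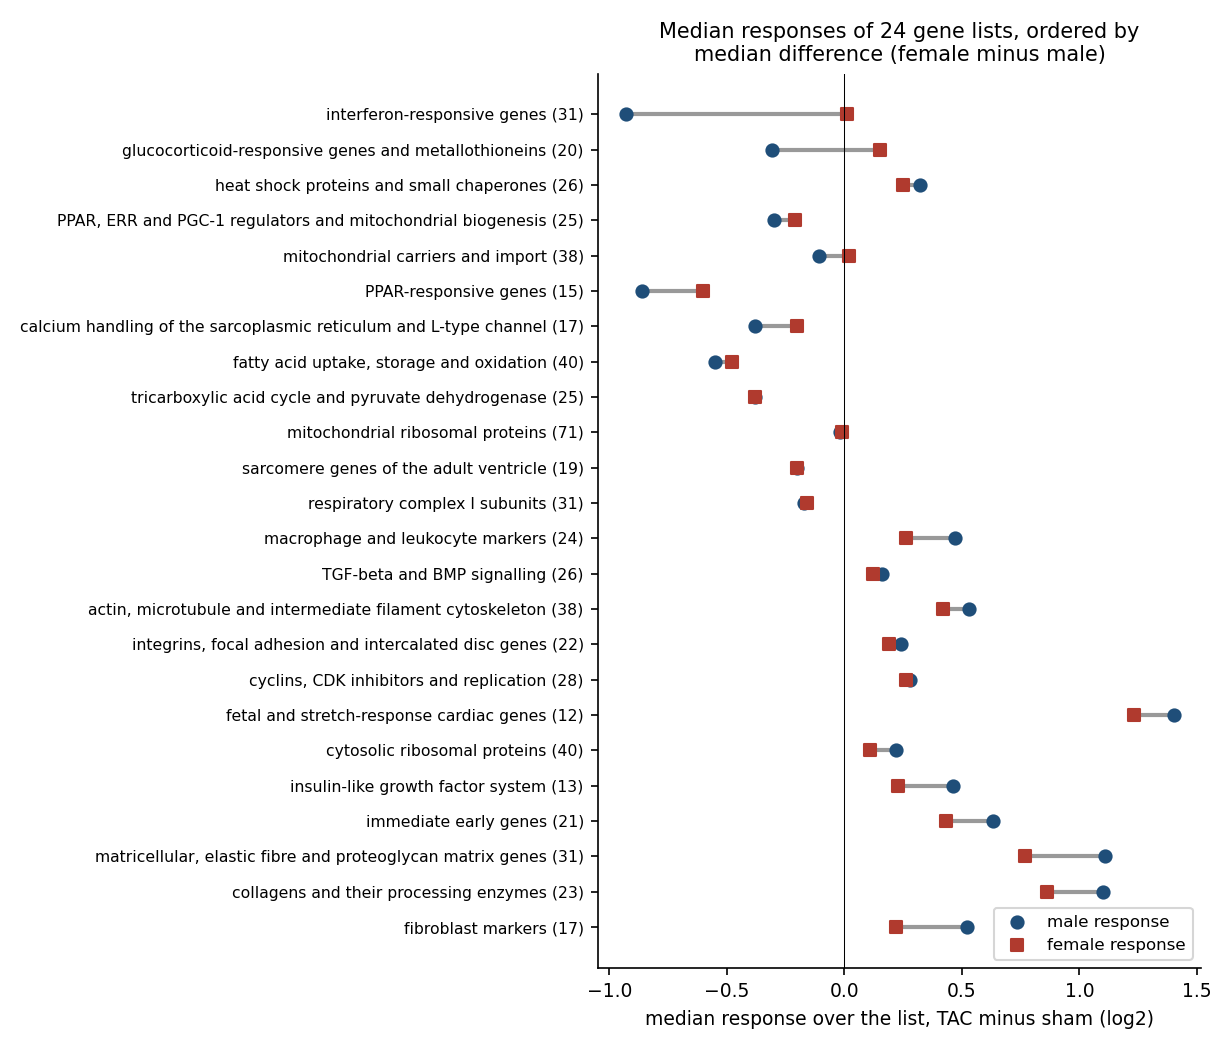
Median response to TAC (log2) in males and females over 24 gene lists, ordered by the median of the members' own differences, with the number of tested genes in parentheses. The interferon list and the glucocorticoid and metallothionein list have the widest gaps. Medians are nearly equal in the sexes for the tricarboxylic acid cycle, complex I and adult sarcomere lists. PPAR-responsive genes stand at -0.86 in males and -0.60 in females, and calcium handling genes at -0.38 and -0.20. The median of the differences need not equal the difference of the medians.

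Genes of fatty acid uptake, storage and oxidation had median responses of -0.55 in males and -0.48 in females. At an adjusted p under 0.05 (limma), 26 of 40 fell in males and 24 in females, against 7.75% and 6.65% of all genes. In either sex 0 rose, against 8.13% and 6.42% of all genes. The median difference was 0.06. At an unadjusted p under 0.05, 5 of 40 members had a positive difference and 0 a negative one, against 3.30% and 3.11% of all genes. The positive count was 2 without male sham replicate 2 or 3. Eci2, an enoyl-CoA isomerase for unsaturated fatty acids, fell by 0.67 in males and 0.29 in females (limma adjusted p = 4.02e-05 and 0.0348), a difference of 0.38 ± 0.13 (SE). Mlycd, which breaks down malonyl-CoA and so frees fatty acid import into mitochondria, fell by 1.14 and 0.73 (limma adjusted p = 4.79e-06 and 0.000572), a difference of 0.41 ± 0.18 (SE). Dgat2, which makes triglyceride, fell in males by 0.82 (limma adjusted p = 0.00121) with a female response of -0.20, and Pnpla2, the lipase that starts its breakdown, fell in males by 0.56 (adjusted p = 0.00898) with a female response of -0.09.

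Dlst, a subunit of the oxoglutarate dehydrogenase complex of the citric acid cycle, had signals of 4153, 4762, 4623 and 4271 in male sham and 2853, 2783, 3213 and 2683 in male TAC. Its female signals were 3314, 3882, 3466 and 3571 in sham and 3407, 4086, 3074 and 3394 in TAC. Male sham lay above all other arrays and the female groups overlapped. Dlst fell by 0.63 in males (limma adjusted p = 0.000241) with a female response of -0.03 and a difference of 0.59 ± 0.14 (SE). Pdk4, the kinase that switches off pyruvate dehydrogenase, fell by 2.54 in males (limma adjusted p = 2.18e-05) and by 1.20 in females (adjusted p = 0.0166). Male sham signals were 12642, 17466, 9898 and 13751 and male TAC signals 2144, 2050, 2534 and 2276, while female sham signals were 11900, 7673, 4380 and 6437 and female TAC signals 1720, 3924, 6901 and 1965. The male groups were far apart, the female groups overlapped, and the difference was 1.35 ± 0.46 (SE), or 0.96 without female TAC replicate 3. Pxmp4, a peroxisomal membrane protein, fell by 0.65 in males (limma adjusted p = 0.00174) with a female response of 0.11 and a difference of 0.76 ± 0.19 (SE). Epas1, an oxygen-regulated factor of the HIF family, fell by 1.11 in males (limma adjusted p = 0.000129) with a female response of -0.24 and a difference of 0.87 ± 0.24 (SE).

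No difference was detected for regulators of these genes. Over 25 PPAR, ERR and PGC-1 regulators and biogenesis genes the median difference was 0.12, and 0 passed the unadjusted threshold, against 6.40% of all genes. Ppargc1a, the coactivator PGC-1 alpha, fell by 0.57 in males (limma adjusted p = 0.0338) with a female response of -0.32, and the 95% interval of the difference was -0.28 to 0.79. Ppara, the fatty acid-sensing receptor, had a difference of 0.45 (95% interval -0.27 to 1.16), Esrrg one of 0.24 (-0.24 to 0.72) and Esrra one of -0.02 (-0.54 to 0.49), the latter pair being oestrogen-related receptors that drive mitochondrial genes. Respiratory chain lists stood close to 0, with median differences of -0.02 for 31 complex I subunits and -0.01 for 45 subunits of complexes II to V. Mfn2, a mitochondrial fusion protein, fell in females by 0.35 (limma adjusted p = 0.0328) with a male response of -0.06, and its difference had an unadjusted p of 0.0721 (limma). Slc25a37, the mitochondrial iron importer mitoferrin, passed in neither sex and had a difference of 0.62 ± 0.25 (SE).

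Among 18 ion channel and pump genes, 2 potassium channels had positive differences at an unadjusted p under 0.05, against 3.30% of all genes. Kcna5, a voltage-gated channel of repolarisation, had responses of -0.52 and 0.66, neither of which passed, and a difference of 1.18 ± 0.33 (SE). Kcnk3, a background potassium channel, fell by 0.57 in males (limma adjusted p = 0.0179) with a female response of -0.08 and a difference of 0.49 ± 0.23 (SE). Of 17 calcium handling genes 0 passed the unadjusted threshold, against 6.40% of all genes. Atp2a2, which pumps calcium back into the sarcoplasmic reticulum, fell by 0.38 and 0.51 (limma adjusted p = 0.0208 and 0.00314), with a difference of -0.13 (95% interval -0.46 to 0.19), and the gene's 3 further probe sets gave positive differences. Rgs2, which limits signalling by Gq-coupled receptors, fell by 1.50 and 0.84 (limma adjusted p = 0.000128 and 0.0171), with an unadjusted p of 0.0543 for the difference (limma).

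Il1b, which encodes an inflammatory interleukin, had responses of opposite sign. Male signals were 184, 219, 227 and 185 in sham and 359, 414, 348 and 352 in TAC. Female signals were 335, 277, 356 and 312 in sham and 217, 265, 255 and 199 in TAC. The male TAC arrays were all above the male shams, the female TAC arrays all below the female shams, and the sexes did not overlap in sham or, in the reverse order, in TAC. The rise of 0.81 in males passed (limma adjusted p = 0.00243), the female response of -0.43 did not (adjusted p = 0.101), and the difference was -1.24 ± 0.24 (SE, limma adjusted p = 0.216), between -1.30 and -1.17 as each array was left out. Ccl6 and Ccl9, chemokines of myeloid cells, had positive differences of 1.08 ± 0.30 and 0.61 ± 0.29 (SE), and passed in neither sex. Over 24 macrophage and leukocyte markers the median difference was -0.04. Those chemokines were the 2 members at an unadjusted p under 0.05, against 3.30% of all genes for positive differences.

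Further genes of small p belonged to no list. Slc10a6, a carrier of sulphated steroids, fell by 0.90 in males (limma adjusted p = 0.00348) with a female response of 0.42 and a difference of 1.32 ± 0.28 (SE). Rgcc, a regulator of the cell cycle that is induced by complement, had signals of 4315, 3895, 5597 and 3888 in male sham and 3087, 2935, 3511 and 2295 in male TAC, against 1761, 2144, 3094 and 2007 in female sham and 3755, 3504, 5076 and 2439 in female TAC. It fell by 0.58 in males (limma adjusted p = 0.0469) and rose by 0.70 in females (adjusted p = 0.0207), a difference of 1.27 ± 0.28 (SE), and the other probe set had the same sign. Flvcr2, a transporter of the heme carrier family, was dim, at 38.9 to 235 in all but the female TAC arrays, where it was 258 to 476. It passed the signal limit of 130.8 only through those arrays, so its difference of 2.76 ± 0.69 (SE) is a description and no support for a change. Dab2, an endocytic adaptor, fell in females by 0.61 (limma adjusted p = 0.00699) with a male response of 0.28, but both other probe sets had differences near 0 of the opposite sign.

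Aplnr, the apelin receptor of the vascular endothelium, rose by 1.69 in males (limma adjusted p = 0.0276) with a female response of -0.11. Its female TAC signals were 4253, 3693, 473 and 7684, and without replicate 3, the low one, the difference moved from -1.79 to -0.96. Mcm3ap, which takes part in nuclear export of messenger RNA, rose in males by 0.81 (limma adjusted p = 0.00903) with a female response of -0.28. Ptpn18, a tyrosine phosphatase, rose in males by 1.47 (limma adjusted p = 0.000571) with a female response of 0.16, from male sham signals of 89.5 to 288. Pim1, a survival kinase, rose in males by 1.19 (limma adjusted p = 0.00165) with a female response of 0.22, and its other probe set had the opposite sign. Tm4sf1, a membrane protein of endothelium and mesenchyme, fell in females by 0.52 (limma adjusted p = 0.0333), and Myh11, smooth muscle myosin, fell by 1.34 (adjusted p = 0.0401) through female TAC replicate 3 at 22.0, the others being 209 to 258. Without that array the Myh11 difference was -0.52 in place of -1.19.

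Of 6 tested thyroid hormone genes, 1 had a positive and 1 a negative difference at an unadjusted p under 0.05, against 3.30% and 3.11% of all genes. Thrb, a thyroid hormone receptor, had responses of 0.37 and -0.39, and Thrsp, a lipogenic target of the hormone, -0.64 and 0.60. None of these responses passed, and the differences were -0.76 ± 0.32 and 1.24 ± 0.35 (SE). The female sham signals of Thrsp were 217, 569, 695 and 651, against 692 to 839 in female TAC, so female sham replicate 1 carried part of its female response.

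Other lists had few or no members past the unadjusted threshold. Immediate early genes had 0 of 21 members at an unadjusted p under 0.05, against 6.40% of all genes. Their median difference was -0.22, and it was 0.10 without male TAC replicate 5. In that array Egr1, a growth-responsive transcription factor, was at 10128 against 590 to 1638 in the other male TAC arrays, and its difference of -1.19 (95% interval -2.76 to 0.38) became -0.38 without it. Cytosolic ribosomal protein genes had a median difference of -0.15, with 30 of 40 negative and 3 of them at an unadjusted p under 0.05, against 3.11% of all genes. That count was 0 with median centring or without the intensity trend, and 1 to 5 as single arrays were left out, the 1 without female TAC replicate 2 and the 5 without female TAC replicate 5. Of those 3, Rpl13a rose by 0.47 in males (limma adjusted p = 0.00132), Rps3 by 0.46 (adjusted p = 0.0114), and Rps24 had a male response of 0.20, with female responses of 0.14, 0.08 and -0.08. Clock genes, heat shock proteins, glycolytic genes and sex steroid genes each had 0 members past the unadjusted threshold, against 6.40% of all genes. Nr1d1, the clock repressor REV-ERB alpha, fell by 1.01 and 1.03 (limma adjusted p = 0.00348 and 0.00359), and Dbp, a clock output factor, had a difference of -0.43 with an interval of -2.10 to 1.25 that leaves its direction unmeasured.

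Other hallmark genes of overload rose in both sexes, and their differences had an unadjusted p above 0.05. Postn, the matricellular protein periostin of activated fibroblasts, rose by 2.90 and 2.14 (limma adjusted p = 1.28e-06 and 4.73e-05), with a difference of -0.77 (95% interval -1.60 to 0.07). Col1a1, the type I collagen chain, rose by 1.63 and 1.24 (limma adjusted p = 5.15e-05 and 0.000962), with a difference of -0.39 (-1.07 to 0.28). Ccn2, connective tissue growth factor, rose by 2.79 and 2.34 (limma adjusted p = 3.42e-05 and 0.000287), with a difference of -0.45 (-1.57 to 0.66) that was -0.97 without female TAC replicate 3. Loxl1, which crosslinks elastin, rose by 2.30 and 1.55 (limma adjusted p = 6.52e-06 and 0.000456), with a difference of -0.75 (-1.53 to 0.03). Tnfrsf12a, the receptor for TWEAK, rose by 2.21 and 2.83 (limma adjusted p = 1.32e-06 and 1.18e-07), with a difference of 0.61 (-0.03 to 1.26). Esr1, the oestrogen receptor alpha gene, lay under the signal limit and was not tested.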

How the data were processed

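The deposited values were array intensities on a linear scale, 1 per probe set of an Affymetrix mouse 430A array, made by the authors with GCOS per the submitters' processing notes, with version and settings not given in the sources used here. Their mean after trimming 2% at each end was 500.21 to 500.25 on every array, and their median 189.7 to 222.3. Each group held 4 arrays, which limits precision. Probe sets were named through the platform annotation (20380 with 1 symbol, 691 with several, 1555 with none), of which 20351 were placed by the RefSeq table of GRCm38.p6.

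Values were taken as log2(signal + 16), the dimmest 40% of probe sets by mean signal (under 130.8) were left out, and 13576 probe sets were fitted with limma 3.58.1 in R 4.3.3, with 4 group means, an intensity trend and Benjamini-Hochberg adjustment over all of them. Fold changes are on the log2(value + pseudocount) scale, which understates changes of dim genes. The fit was tested on simulated data.

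The genes named are the 12 of smallest p for the difference in each direction, the 3 of smallest p in each gene list, genes called in both sexes with opposite signs, and 24 fixed genes, 1 probe set per gene (the brightest). After their values were seen 11 genes were added, among them Ifit3, Irf7, Irf9, Bst2 and Gbp2. The members and lists were chosen with earlier results of these data known. Alternatives were other pseudocounts and filters, quantile normalization, median centring, 18S and Gapdh covariates, array weights, no trend, the replicate number as a block, 1 probe set per gene, autosomal probe sets only, and each array left out. Outlying values were sought with Dixon's test. Promoter windows were searched with Python 3.11.15.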

Additional observations from a re-analysis of the deposited data

Results flagged for a closer look

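Of 360 groups of 4 arrays examined for 90 genes, 26 held 1 array far from the other 3 by Dixon's test, where chance flags about 1 in 20. In female TAC replicate 3, Slc10a6 was at 640 (others 335 to 371), Usp18 at 133 (349 to 359), Ifit3 at 317 (546 to 598) and Myh11 at 22.0 (209 to 258). Among interferon genes, Gbp2 was at 655 in male sham replicate 2 (1636 to 1708) and at 3244 in male TAC replicate 5 (315 to 423). Among matrix and fibroblast genes, Lum was at 1911 in female sham replicate 3 (2348 to 2373), P4ha2 at 455 in male TAC replicate 4 (648 to 679), Frzb at 281 in female TAC replicate 1 (452 to 492), Pdgfra at 890 in female sham replicate 1 (674 to 700) and Ccn2 at 884 in male sham replicate 4 (681 to 687).

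Among cytoskeletal, adhesion and membrane genes, Actg1 was at 7003 in female sham replicate 4 (5290 to 5534), Tuba1a at 6102 in female TAC replicate 2 (4240 to 4488), Pxn at 1724 in female TAC replicate 5 (1476 to 1516), Itgav at 1447 in male TAC replicate 1 (1722 to 1773) and Tm4sf1 at 2053 in female TAC replicate 5 (1333 to 1426). In female sham replicate 1, Rps3 was at 7703 (5348 to 5619), Epas1 at 547 (722 to 734), Atp2a2 at 55688 (43615 to 44511), Ppargc1a at 1568 (1260 to 1263) and Nr1d1 at 1083 (788 to 820). Epas1 was also at 773 in female TAC replicate 1 (504 to 527), and Atp2a2 at 26244 in female TAC replicate 2 (34224 to 35875). Esrrg was at 474 in female sham replicate 3 (389 to 400), Ppara at 806 in male TAC replicate 5 (498 to 530) and Egr1 at 426 in male sham replicate 2 (322 to 327).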

How the results depend on the processing

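No probe set passed an adjusted p of 0.05 for the difference in limma (766 at an unadjusted p under 0.05). That count was 2 with 1 probe set per gene, 2 without the dimmest 60%, 1 with a pseudocount of 64, and 0 to 9 as single arrays were left out, the 9 without male TAC replicate 5. With no filter 1196 probe sets had an unadjusted p under 0.05. Calls in males (2149) were 1225 with 1 probe set per gene, 891 with the 18S and 352 with the Gapdh covariate. Calls in females (1820) were 1007 with 1 probe set per gene and 441 with the Gapdh covariate. Calls averaged over the sexes (3459) were 2072, 1705 with 18S and 572 with Gapdh. As the Gapdh ratio was higher in every TAC array than in every sham array, that covariate takes up part of the TAC contrast itself. Calls between the sexes in sham (30) were 18 with 18S, 50 with array weights, 13 without the trend, and 10 (without male sham replicate 3) to 55 (without male TAC replicate 5) with an array left out. In TAC (2) they were 1 with 1 probe set per gene, the Gapdh covariate, no trend or quantile normalization, 0 with autosomal probe sets only, and 0 to 5 with an array left out. The share of risen genes with the larger response in males (59.4%) was 80.1% with Gapdh. Among fallen genes (55.2%) it was 67.4% with 18S, 81.4% with Gapdh and 47.7% to 58.0% with an array left out. With a covariate or an array left out, the choice of genes is no longer independent of the difference. Signs turned for differences near 0 or poorly measured. Myh6 was 0.02 with median centring. Nppa was -0.13 with 18S and -0.11 to 0.42 with an array left out. Esrra was 0.10 with either covariate, 0.04 with median centring and -0.18 to 0.09 with an array left out. Nr1d1 was 0.12 with 18S, 0.02 with array weights, 0.04 with median centring and -0.17 to 0.22 with an array left out. Dbp was -1.05 to 0.24 with an array left out, and Gbp2 was -0.44 with 18S. The causes were not tested. Deviations from the group means correlated at -0.035 to 0.115 over 19 pairs of same-numbered arrays and at -0.125 to 0.128 over 77 pairs of different numbers. The labels do not say what the numbers mark, and such correlations cannot show whether they pair the arrays. With the replicate number as a block, 2 probe sets passed for the difference, 51 between the sexes in sham and 1 in TAC, and the Nr1d1 difference was 0.05.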
